A study of Sus scrofa with 2 samples.

Results

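Transcripts of the proteasome and of the ubiquitin-conjugating enzymes were compared between single porcine cumulus-oocyte complexes (COC) on EMPV1, a custom 2-colour oligonucleotide array built for pig embryos. The members were all probes whose gene symbol in the platform annotation begins with PSMA to PSMG followed by a digit, or with UBE2, which gave 120 of 43794 probes and 59 of 11938 named genes. They fell into the core particle (PSMA and PSMB, 27 probes of 12 genes), the regulatory cap (PSMC and PSMD, 37 probes of 17 genes), the activators, inhibitor and assembly chaperones (PSME, PSMF and PSMG, 7 probes of 7 genes) and the E2 enzymes (UBE2, 48 probes of 22 genes). The remaining gene, PSMC3IP, encodes a factor of meiotic recombination rather than a subunit and was kept apart from the classes.

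A single COC labelled COC7 was set against a single COC labelled COC4, both from Large White gilts whose ovaries came from a slaughterhouse, aspirated from mature follicles and given no treatment that the sources used here name. The labels state nothing that sets COC7 apart from COC4 beyond its name. Array 1 carried COC7 in Cy5 and COC4 in Cy3, and array 2 carried the same RNAs with the dyes exchanged, so the 2 arrays are a technical repeat of 1 pair and no test between the complexes was possible. A COC holds the oocyte together with its somatic cumulus cells, and in such RNA fewer cells of a type and less RNA per cell cannot be told apart.

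The values were the authors' normalized log ratios, with the base taken as 2. The sign of array 2 was turned and both arrays were averaged, so that a dye effect of equal size cancels. The value after ± is the distance from this mean to either array, which is a technical spread and no error between animals. Positive means are written as the COC7 side, negative means as the COC4 side. That direction is likely rather than stated, since its basis is which channel the labels list first. With the opposite direction COC7 and COC4 would have to be exchanged throughout. All 10 spike-in RNAs kept their sign on both arrays before turning, so both arrays have one direction. Only ratios were used here, so no level or detection of a transcript is given, and the presence of oocyte and cumulus transcripts could not be checked.

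Proteins marked with chains of ubiquitin are unfolded by the cap of the proteasome and cut inside its barrel-shaped core. Ubiquitin is activated by an E1 enzyme, handed to an E2 (UBE2) enzyme and placed on the target with the help of an E3 ligase. In the oocyte this route removes cyclin B and securin at the meiotic divisions, and proteasome activity is needed for the completion of meiosis and for the expansion of the cumulus.

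The members with the largest differences were the assembly chaperone PSMG4, some activators and some E2 enzymes. At 2-fold on the mean of both arrays only 1 of 120 member probes was found, that of PSMG4 on the COC7 side (0.833%), where 0.0913% of all probes lay, and 0 members were on the COC4 side (all probes 0.0822%). At 1.5-fold, 9 of 120 member probes were found (7.5%) against 1.7% of all probes. Of these, 6 were higher in COC7 (5%, all probes 0.916%) and 3 were higher in COC4 (2.5%, all probes 0.788%). By class, 4 of the 7 probes of activators, inhibitor and chaperones and 5 of the 48 UBE2 probes were among the 9. The 27 core and 37 cap probes held 0 of them, which is near what the share of all probes would give and is not read as a difference between the classes. In terms of genes, 7 of 59 passed 1.5-fold (11.9%, all named genes 1.93%). These were 4 genes higher in COC7 (PSMG4, UBE2D2, UBE2S and UBE2R2) and 3 higher in COC4 (PSME2, PSME4 and PSME1), and of all named genes 0.963% passed on each side. The arrays contributed unequally. On array 1 alone, 11 member probes passed 1.5-fold towards COC7 (all probes 3.95%) and 8 towards COC4 (3.06%), while on array 2 alone there were 2 (2.56%) and 3 (2.35%). At 2-fold there were 6 (0.904%) and 1 (0.511%) on array 1, and 0 (0.361%) and 2 (0.384%) on array 2. When 1.5-fold was asked on each array separately, only the PSMG4 probe was left towards COC7 (all probes 0.167%) and 0 towards COC4 (all probes 0.228%). No member passed 2-fold on each array, where 0.00228% of all probes did so towards COC7 and 0.0297% towards COC4.

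**Figure D1:**
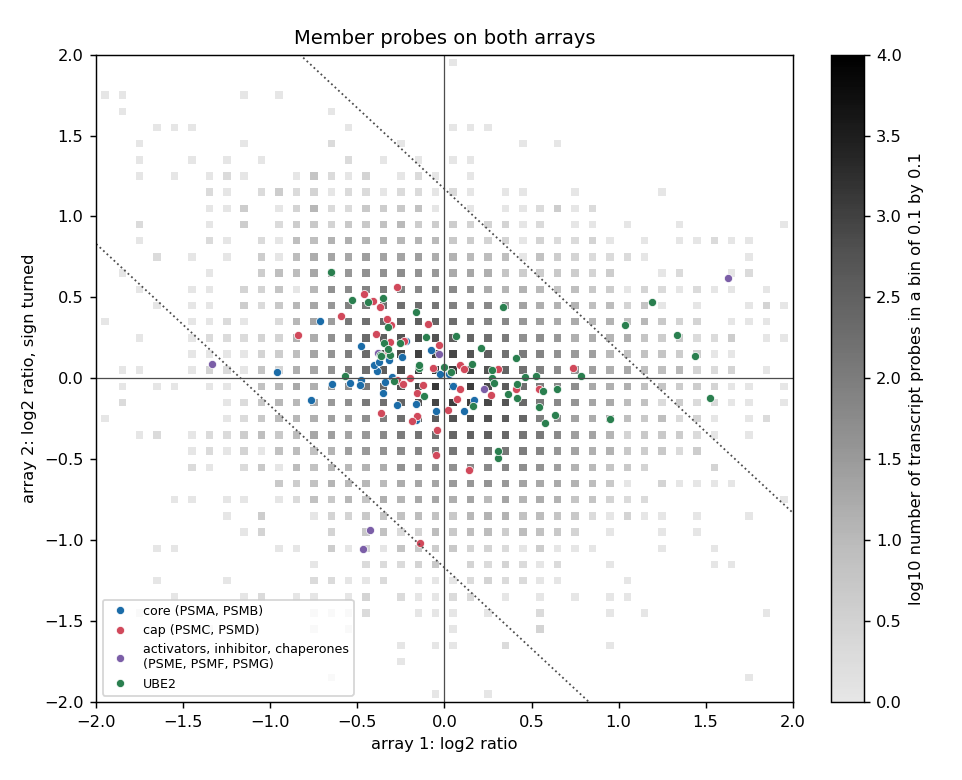
Log2 ratio on array 1 (horizontal) and on array 2 with its sign turned (vertical) for 119 member probes of the 4 classes (coloured points) over all transcript probes (grey squares, darker with more probes on a log10 scale), the dotted lines marking a 1.5-fold mean. Most member probes lie inside the dotted lines, and those beyond them are probes of UBE2, PSMG4 and PSME; the axes end at 2 on either side, beyond which lie 31 probes of the array and 0 members.

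The 20S core, a stack of rings of alpha and beta subunits, lay slightly towards COC4. The median over its 12 genes was −0.13 (range −0.38 to 0.017) against 0.0062 over all named genes, with 10 of 12 genes below 0. The lean came mainly from array 1, where 11 of 12 genes lay below 0 with a median of −0.26, while on array 2 only 6 of 12 did and the median was −0.013. The same sign on both arrays was found for 5 of 12 genes, all of them on the COC4 side. Over all named genes 38.7% had the same sign on both arrays.

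PSMB4, a beta subunit without a catalytic site, had the core's largest contrast, with −0.69 on array 1 and −0.061 on array 2, or a mean of −0.38 ± 0.32 (1.30-fold). Its 3 probes gave means from −0.46 to −0.22, so all of them lay on the COC4 side. The catalytic subunit PSMB6, which carries the caspase-like activity, had −0.56 and −0.036, or −0.30 ± 0.26, and all 3 of its probes were below 0 on both arrays. PSMB7, with the trypsin-like site, had −0.32 and 0.071, or −0.12 ± 0.20, with the arrays on opposite sides of 0. The core gene whose arrays lay closest together was PSMA4 of the alpha ring, with −0.22 and −0.21, or −0.22 ± 0.0049, each of its 2 probes lying below 0 on both arrays. The third catalytic subunit, PSMB5, was among the symbols not named on the array.

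The immunoproteasome subunits, which replace the catalytic ones after interferon, showed little difference. PSMB8 had 0.17 on array 1 and −0.13 on array 2 (mean 0.017 ± 0.15). PSMB9 had −0.046 and −0.20 (mean −0.12 ± 0.079). PSMB11, the catalytic subunit of the thymus proteasome, had −0.30 and 0.0099 (mean −0.14 ± 0.15). Of the 6 alpha ring genes measured, 5 lay below 0, with a median of −0.12. PSMA1 had −0.14 ± 0.38, PSMA6 −0.14 ± 0.34, PSMA5 −0.094 ± 0.048 and PSMA3 −0.066 ± 0.091. PSMA8, the alpha subunit of the testis proteasome, had 0.0057 ± 0.22. Thus only PSMA4 and PSMA5 of the alpha ring kept one sign on both arrays.

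**Figure D2:**
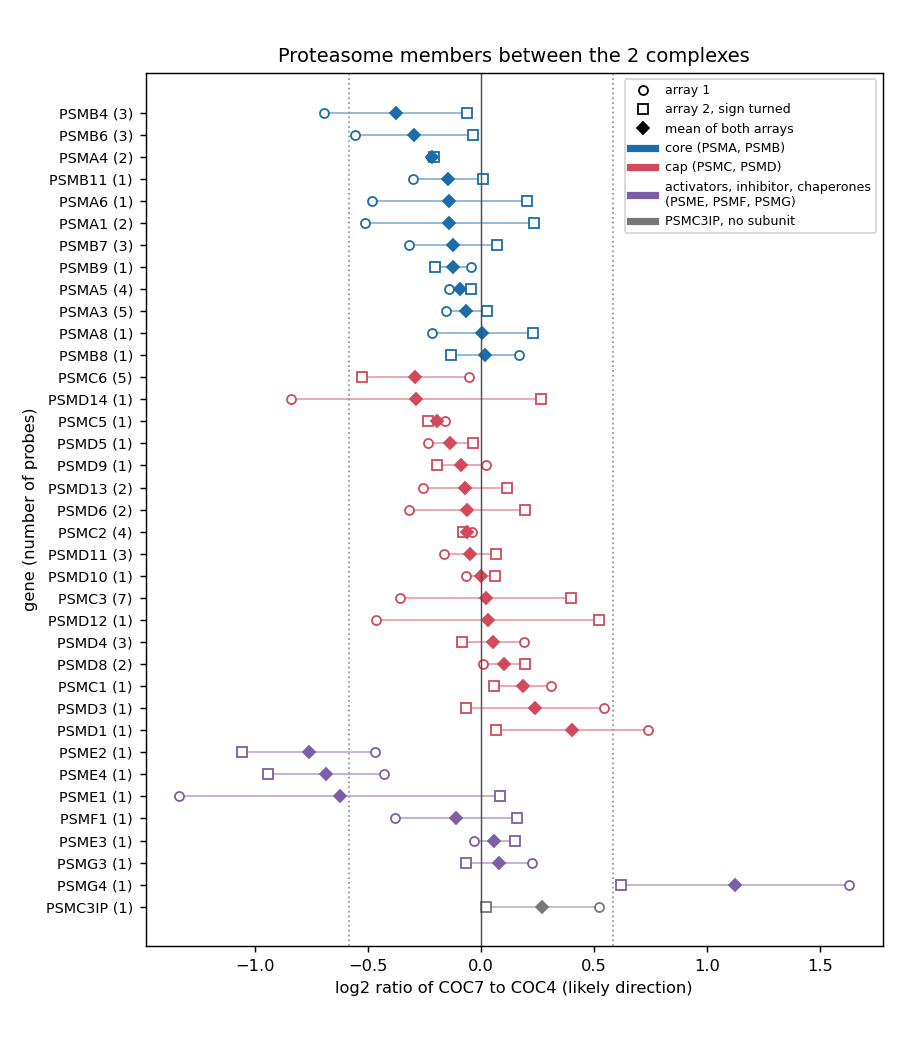
Log2 ratio of COC7 to COC4 (horizontal, likely direction) for 36 proteasome genes and PSMC3IP, by class, with array 1 (circles), array 2 after turning (squares) and their mean (diamonds); the number of probes averaged stands after each symbol, and dotted lines mark 1.5-fold. The diamonds of core and cap lie between −0.38 and 0.40, whereas PSME2, PSME4 and PSME1 lie between −0.76 and −0.63 and PSMG4 at 1.12.

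The 19S cap, which binds ubiquitin chains, unfolds the target and feeds it to the core, was spread about 0. Its 17 genes had a median of −0.051 (range −0.29 to 0.40), with 7 above and 10 below 0, and the same sign on both arrays in 7 genes (3 above, 4 below). The median turned from −0.065 on array 1 to 0.061 on array 2, so no side is given for the cap as a whole.

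PSMD1, the large scaffold of the base, lay farthest on the COC7 side, with 0.74 on array 1 and 0.066 on array 2, or 0.40 ± 0.34 (1.32-fold). PSMD3, a structural subunit of the lid, had 0.55 and −0.066, or 0.24 ± 0.31. On the COC4 side, the ATPase PSMC6 had −0.055 and −0.53, or −0.29 ± 0.24. All 5 probes of PSMC6 had a mean below 0, from −0.58 to −0.18, and 4 of them were below 0 on both arrays. PSMD14, the deubiquitinase of the lid, reached a like mean, −0.29 ± 0.55, from values of −0.84 and 0.27 that lay on opposite sides of 0.

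The ATPases, which form the ring that unfolds the target, mostly had arrays of one sign. PSMC5 had −0.16 and −0.23 (mean −0.20 ± 0.036). PSMC2 had −0.041 and −0.081 (mean −0.061 ± 0.020), with 2 of its 4 probes on either side of 0. PSMC1 had 0.31 and 0.059 (mean 0.18 ± 0.12). With PSMC6, 4 of the 5 ATPase genes measured kept their sign (80%, all named genes 38.7%). With so few genes this is not read as a trait of the ring. PSMC3 did not keep its sign, and it had more probes than any other member. All 7 of its probes were negative on array 1 (−0.59 to −0.23) and positive on array 2 (0.23 to 0.57), so that the gene mean was 0.020 ± 0.38 and its dye part, the mean without turning, was −0.38.

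Of the other lid subunits, PSMD12 had 0.029 ± 0.49, PSMD8 0.10 ± 0.093, PSMD6 −0.061 ± 0.26, PSMD11 −0.051 ± 0.12 and PSMD13 −0.071 ± 0.19. Only PSMD8 among the 7 lid genes had the same sign on both arrays (14.3%, all named genes 38.7%). On array 2, 6 of 7 lay above 0, against 2 of 7 on array 1. The ubiquitin receptor PSMD4 had 0.053 ± 0.14, each of its 3 probes being positive on array 1 only. The 3 chaperones that assist assembly of the base all had means below 0, at −0.14 ± 0.10 for PSMD5, −0.087 ± 0.11 for PSMD9 and −0.0022 ± 0.063 for PSMD10. PSMD5 was the only one of them on the same side in both arrays.

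Among the proteins that bind the ends of the core in place of the cap were the members farthest towards COC4. PSME1 and PSME2 form the interferon-inducible PA28 ring, PSME3 forms the related ring of the nucleus, and PSME4 is the large activator PA200, which in mice is needed for normal spermatogenesis. PSME2 gave −0.47 and −1.06 on arrays 1 and 2, so that its mean was −0.76 ± 0.29 (1.70-fold towards COC4) and its place from the COC4 end was 40 of 11938 named genes. PSME4 had −0.43 and −0.94, a mean of −0.68 ± 0.26 (1.61-fold) and place 60. Both genes were lower in COC7 on each array, although neither passed 1.5-fold on array 1.

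PSME1 had a similar mean, −0.63 ± 0.71 (1.54-fold, place 93), but on different grounds. It had −1.34 on array 1 and 0.085 on array 2, so its mean came from 1 array and its dye part of −0.71 was larger than its contrast. The partners of the PA28 ring therefore shared the side of their mean but not the array on which it arose. PSME1 and PSME2 lie close together in the pig genome, with 1 annotated gene between them in the RefSeq annotation of Sscrofa11.1. PSME3 had −0.033 and 0.15 (mean 0.058 ± 0.092). The inhibitor PSMF1 had −0.38 and 0.16 (mean −0.11 ± 0.27). Neither kept one sign, and each of these 5 genes was measured by 1 probe.

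PSMG4, which together with PSMG3 helps the alpha ring to form, had the largest contrast of all members. Its single probe gave 1.63 and 0.62 on arrays 1 and 2, so that its mean was 1.12 ± 0.50, 2.18-fold towards COC7, at place 5 of 11938 named genes from that end. PSMG3 had 0.23 and −0.067, a mean of 0.079 ± 0.15, so the partner did not share the difference. Their other partners PSMG1 and PSMG2 were not among the named probes. The class as a whole had a median of −0.11 (range −0.76 to 1.12), which was −0.38 on array 1 and 0.085 on array 2, and so is described by its single genes.

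The E2 enzymes had a median slightly on the COC7 side. Over 22 genes it was 0.084 (range −0.14 to 0.82), with 14 above 0 (63.6%, all named genes 52.0%) and 8 below, and it was 0.28 on array 1 and 0.061 on array 2. On each array 15 of 22 genes lay above 0, although not the same ones throughout. The same sign on both arrays was found for 8 genes (36.4%, all named genes 38.7%), UBE2D2, UBE2S, UBE2R2, UBE2J2, UBE2Q1, UBE2J1, UBE2K and UBE2L6, and all 8 lay on the COC7 side. Of all named genes with one sign on both arrays, 2419 were higher in COC7 and 2198 were higher in COC4.

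UBE2D2, an E2 that works with many ligases, had the largest contrast of the family, with 1.27 on array 1 and 0.37 on array 2, or 0.82 ± 0.45 (1.76-fold, 26 from the COC7 end). Its 2 probes gave 0.80 and 0.83, and each was above 0 on both arrays. The near relatives of UBE2D2 did not share this difference. UBE2D1 had 0.17 and −0.17 (mean −0.0031 ± 0.17), and UBE2D4 had −0.073 and 0.067 (mean −0.0030 ± 0.070). UBE2D3, the closest relative of UBE2D2, was not among the named probes, and how far the probes tell the paralogs apart was not analysed.

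UBE2S and UBE2C serve the anaphase-promoting complex (APC/C), the ligase that marks cyclin B and securin. UBE2C starts the ubiquitin chain and UBE2S extends it. UBE2S had 1.44 on array 1 and 0.14 on array 2, or 0.79 ± 0.65 (1.73-fold, 32 from the COC7 end), from 1 probe. UBE2C had −0.29 and 0.37, or 0.044 ± 0.33, and all 3 of its probes were negative on array 1 and positive on array 2. The enzymes of this pair thus differed in both mean and pattern.

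The E2 enzymes that build chains linked through lysine 48 of ubiquitin, or that act in the degradation of proteins from the endoplasmic reticulum, all had means above 0. The median of the 5 genes measured was 0.27, with 0.75 on array 1 and 0.025 on array 2. UBE2R2, a relative of CDC34 that extends chains for SCF ligases, had 1.04 and 0.33, or 0.68 ± 0.35 (1.61-fold, 66 from the COC7 end). UBE2J2, anchored in the reticulum membrane, had 0.93 and 0.16, or 0.54 ± 0.39 (1.46-fold). Of its 2 probes, the one with 0.34 and 0.44 had a mean of 0.39, while the one with 1.53 and −0.12 had a mean of 0.70 that passed 1.5-fold on the strength of array 1. UBE2J1, also of that membrane, had 0.40 and 0.011 (mean 0.21 ± 0.20). UBE2K had 0.27 and 0.025 (mean 0.15 ± 0.12), with 5 of its 6 probes above 0. UBE2G1 had 0.75 and −0.21 (mean 0.27 ± 0.48) and was the only gene of the 5 whose arrays disagreed in sign.

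UBE2Q1, which in mice is required for female fertility, was the only one of the 8 members with 4 or more probes whose probes all kept one sign on both arrays. It had 0.45 on array 1 and 0.055 on array 2 (mean 0.25 ± 0.20), and its 5 probes had means from 0.16 to 0.40. The related UBE2QL1 had 0.57 and −0.082 (mean 0.24 ± 0.32). UBE2N, which with UBE2V1 makes chains linked through lysine 63, had 0.23 and −0.040 (mean 0.095 ± 0.13). UBE2V1 had −0.44 and 0.47 (mean 0.017 ± 0.45). These partners had opposite signs on each array.

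The other E2 enzymes lay within 0.14 of 0. UBE2A, of DNA repair, had −0.14 ± 0.26, and UBE2T, the E2 of the Fanconi anaemia pathway, had −0.12 ± 0.13. UBE2L3, which charges HECT and RBR ligases, had −0.012 ± 0.26, and UBE2L6, the E2 of the ubiquitin-like ISG15, had 0.074 ± 0.024. UBE2W, which modifies amino termini, had 0.13 ± 0.16. UBE2E2 had −0.092 ± 0.40, UBE2H −0.071 ± 0.38 and UBE2U −0.072 ± 0.25. UBE2L6 alone of these 8 genes had the same sign on both arrays, but only as the mean of 3 probes, each of which had opposite signs on the arrays. PSMC3IP, outside the classes, had 0.52 and 0.022, a mean of 0.27 ± 0.25.

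**Figure D3:**
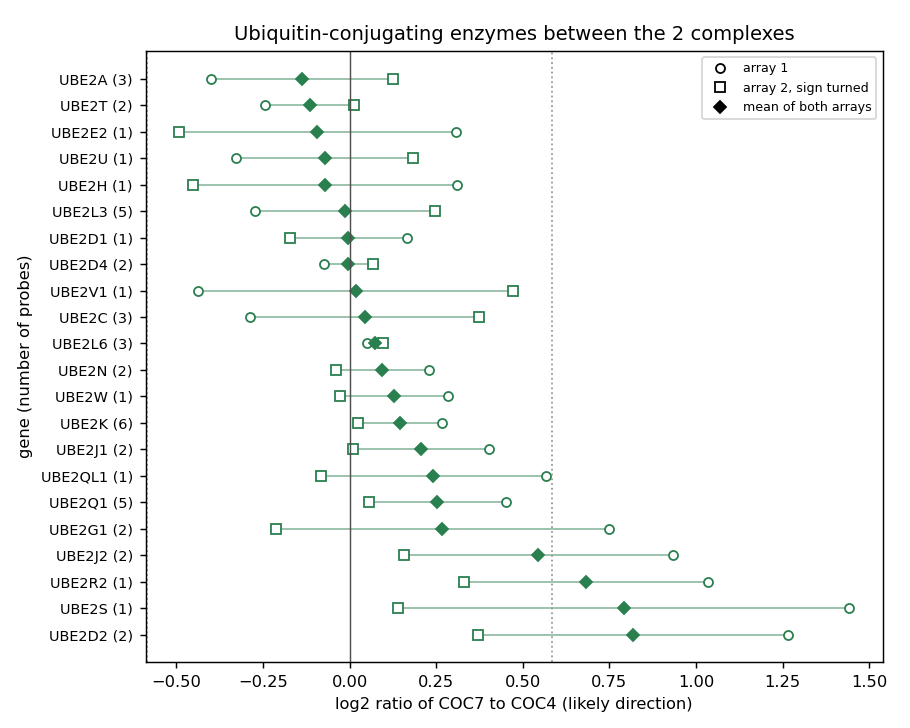
Log2 ratio of COC7 to COC4 (horizontal, likely direction) for the 22 UBE2 genes, ordered by their mean, with array 1 (circles), array 2 after turning (squares) and the mean of both (diamonds); the number of probes stands after each symbol, and the dotted line marks 1.5-fold. The means run from −0.14 for UBE2A to 0.82 for UBE2D2, and at the lower end of the plot the value on array 1 is larger than that on array 2 in each of the 9 genes from UBE2K to UBE2D2.

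Probes of one gene gave a further look at how firm these values are. Among members, 28 genes had several probes (89 probes), and in 17 of the 28 all probes had their mean on one side of 0 (60.7%), against 46.0% of the 3325 named genes with several probes. The SD between probes of one member was 0.11, close to that of the contrast in spots that bind no transcript (SD 0.10 in 153 negative control spots and 0.11 in 604 dark corners). Single control spots reached farther, up to 0.30 from 0 in the negative controls and 0.88 in the dark corners, which is beyond the mean of every member except PSMG4. The SD between the 28 genes with several probes was 0.25, and between all 59 member genes it was 0.32. Over all named genes the SD between probes of one gene was 0.16. Of the 7 genes past 1.5-fold only UBE2D2 had several probes, so the agreement of probes says nothing of the others. The widest range over probes of a member was 0.40, for PSMC6. These probes read the same RNAs on the same arrays and are not replicates of a COC.

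**Figure D4:**
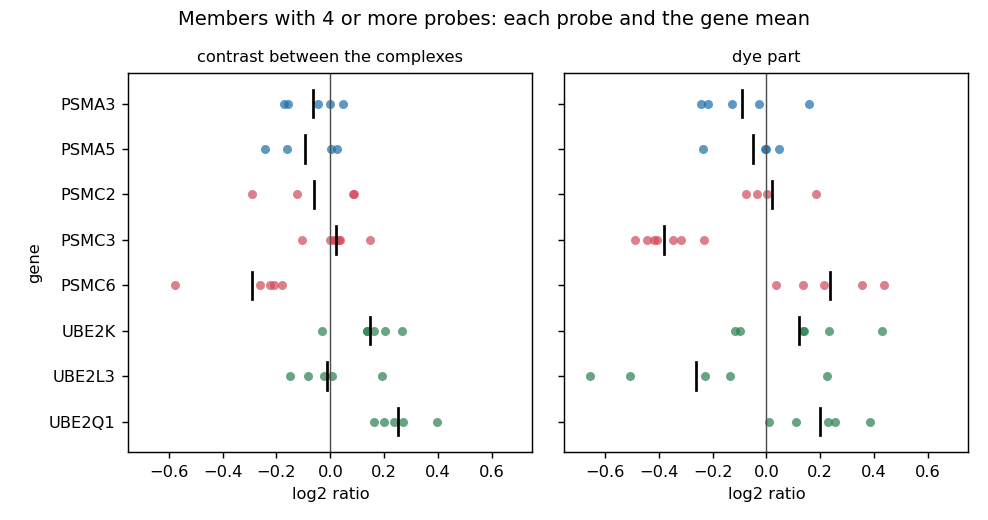
Mean log2 ratio of each probe (points) and of the gene (bars) for the 8 members with 4 or more probes, as the contrast between COC7 and COC4 (left) and as the dye part, the mean of the arrays without turning (right). All probes of PSMC6 lie below 0 and all of UBE2Q1 above 0 in the contrast, whereas the 7 probes of PSMC3 lie around 0 in the contrast and between −0.49 and −0.23 in the dye part.

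The dye part was larger than the contrast at 73 of 120 member probes (60.8%), against 62.9% of all probes, and 47 of 120 member probes (39.2%) had the same sign on both arrays, against 37.1%. Across the member probes, Pearson's r between array 1 and the turned array 2 was −0.070, and across all probes it was −0.268. Probes are not independent replicates. In size, the contrast had a median absolute log2 ratio of 0.12 over the 59 member genes and 0.085 over all named genes. By class this was 0.13 for the core, 0.087 for the cap, 0.625 for the activators, inhibitor and chaperones and 0.12 for UBE2. The cap was thus near all named genes. Each gene of the activators, inhibitor and chaperones had 1 probe, whereas many genes of the other classes are means of several probes. These sizes are therefore not like measures.

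Other genes of the pathway were taken from 6 lists, of which 32 of 58 genes were measured. Their median was −0.024, with 14 above 0 (43.8%, all named genes 52.0%) and 18 below. Past 1.5-fold was 1 of 32, where 1.93% of all named genes passed, so the count is near that share. This was RPS27A, which encodes ubiquitin fused to a ribosomal protein, with −1.00 on array 1 and −0.31 on array 2, or −0.66 ± 0.35 (1.58-fold towards COC4). The polyubiquitin gene UBB had −0.10 and −0.28 (mean −0.19 ± 0.090). Both ubiquitin genes measured thus lay below 0 on each array.

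The small modifiers NEDD8, SUMO2 and SUMO4, relatives of ubiquitin, also lay below 0 on each array, 3 of 3. SUMO4 had a mean of −0.40 ± 0.24 and SUMO2 one of −0.37 ± 0.27. Among the 9 genes of the APC/C and its regulators (median −0.013), CDC20, the activator used at anaphase, lay farthest on the COC7 side, with 0.84 and 0.14, or 0.49 ± 0.35. The subunit ANAPC13 lay farthest on the COC4 side, with −0.40 and −0.37, or −0.38 ± 0.012. CDC20, like UBE2S, had a high value on array 1 and a lower one of the same sign on array 2. PSMG4, UBE2D2 and UBE2R2 had this pattern too, so it is not particular to genes of the APC/C. The APC/C subunits as a list took no side.

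In the SCF list (5 genes, median 0.079) the scaffold CUL1 had −0.43 ± 0.34 and COPS5, which removes NEDD8 from cullins, had −0.32 ± 0.42. Of 7 proteasome-associated genes (median −0.016), VCP, the ATPase that extracts ubiquitinated proteins, had −0.31 ± 0.21 and PAAF1, an assembly factor of the cap, had −0.19 ± 0.036. The 6 E1 genes (median 0.025) lay between −0.092 and 0.16, with 0.16 ± 0.049 for SAE1 of the SUMO pathway and 0.15 ± 0.19 for UBA1, the main E1 of ubiquitin.

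**Figure D5:**
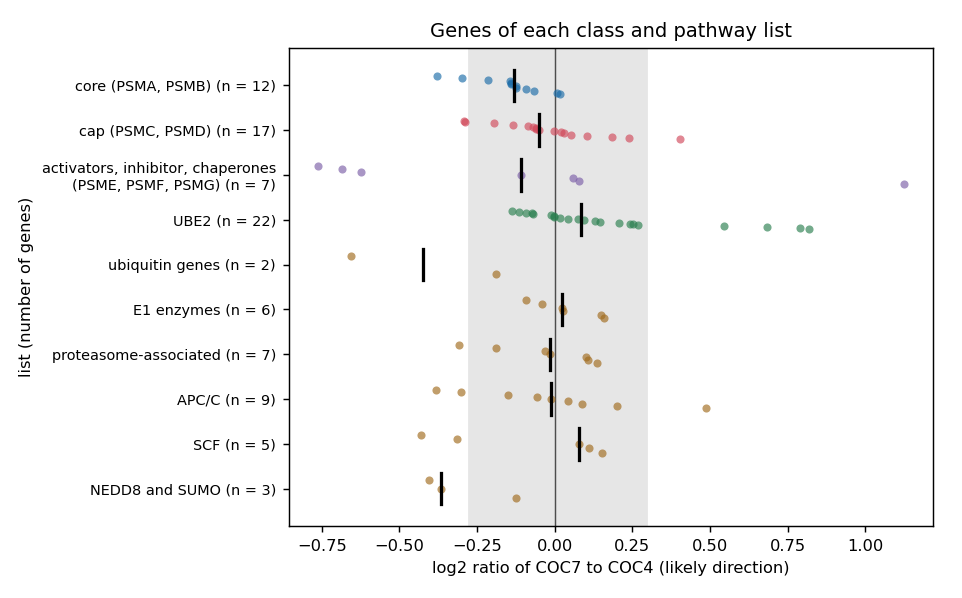
Log2 ratio of COC7 to COC4 (horizontal, likely direction) of each gene (points) in the 4 classes of members and in 6 lists of other ubiquitin genes, with the median of each list (bars) and the range that holds the middle of all named genes, from the 5th to the 95th percentile (grey, −0.27 to 0.30). The core has 10 of 12 points below 0 and UBE2 has 14 of 22 above 0. Members outside the grey range are PSMB4 and PSMB6 of the core, PSMC6, PSMD14 and PSMD1 of the cap, PSME2, PSME4, PSME1, PSMG4, UBE2D2, UBE2S, UBE2R2 and UBE2J2. Genes of the 6 lists outside it are RPS27A, CUL1, COPS5, SUMO4, SUMO2, ANAPC13, ANAPC5 and VCP on the COC4 side and CDC20 on the COC7 side.

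Markers of the cells that make up a COC moved as well. Of 14 cumulus and granulosa markers measured, 12 lay on the COC4 side, with a median of −0.43 (range −1.28 to 0.32), and the median was −0.49 on array 1 and −0.22 on array 2. Of 10 oocyte markers, 7 lay on the COC7 side, with a median of 0.12 (range −0.098 to 0.70), but the median was −0.25 on array 1 and 0.52 on array 2. The median was 0.0034 for 3 blood and immune markers (range −0.017 to 0.046). For 9 markers of theca, stroma and vessels it was −0.057 (range −2.13 to 0.037), and 3 of the 9, RGS5 at −2.13 ± 0.91, DCN at −0.39 ± 0.11 and CLDN5 at −0.30 ± 0.17, were below 0 on both arrays. The other markers of that list lay between −0.20 and 0.037. Of the cumulus markers 8 kept one sign on both arrays, all below 0. Of the oocyte markers 3 did, ZAR1 at 0.70 ± 0.20, FIGLA at 0.56 ± 0.069 and NPM2 at 0.47 ± 0.37, all above 0. The oocyte list as a whole is given no side, because its median turned between the arrays. On array 1, 7 of its 10 genes were below 0, and on array 2 all 10 were above 0. The part of the makeup of the complexes in these results was not tested.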

How the data were processed

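RNA of 2 COC was measured on 2 arrays as a dye swap. The authors amplified and labelled the RNA, corrected for background with GenePix Pro 6.0, normalized their data within arrays and across them, and applied limma through FlexArray 1.6. They deposited log2 ratios, the log base being read from 2-fold lines of a plot. The method of normalization and the ratio's direction were not given in the sources used here. The other deposited table holds the same values for 43794 of 43794 probes and adds 1426 control spots. Its columns were assigned to the arrays by these equal values, and only measures of control spots that do not depend on the assignment were used. The number of value columns left out was 0.

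Here the sign of array 2 was turned, the arrays were averaged, and probes with 1 gene symbol (18121 of 43794) were averaged per gene. Symbols were those of the platform annotation. All 59 member symbols are in the RefSeq table of Sscrofa11.1, as are 17 of 23 accessions of member probes, each with the same symbol. Of 82 RefSeq symbols that fit the rule, 23 are borne by no probe in that annotation. Probe, promoter and protein sequences were not used here. Gene positions of the RefSeq annotation gave the number of genes between PSME1 and PSME2. No test was run, since each side is 1 COC. Members past 2-fold, the threshold of the methods, and past 1.5-fold were counted. The number of arrays limits the precision.

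The members, the classes, the lists of pathway genes and of markers, and the rule for named genes were chosen with earlier results of these data known. By that rule each member was given, with fuller values for members with a probe past 1.5-fold, the 4 farthest from 0 in each class, the catalytic and immunoproteasome subunits, and the E2 enzymes of the APC/C, UBE2D and UBE2N with UBE2V. In the pathway lists, genes past 1.5-fold and the 2 farthest from 0 were named.

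The alternatives tried were array 1 or array 2 alone, arrays centred on their medians, removal of the medians of 140 slide blocks, the other table, probes in place of genes, the median of a gene's probes, probes with one sign on both arrays, and the fold asked on each array. The arithmetic was tested on simulated data. Python 3.11.15, numpy 2.4.6, pandas 2.3.3 and matplotlib 3.10.9 were used.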

Additional observations from a re-analysis of the deposited data

How the results depend on the processing

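With 1 pair of complexes, each array alone is the strongest change of setting. On array 1 alone the UBE2 median was 0.28. The median of the core was −0.26 on array 1 and −0.013 on array 2, that of the cap −0.065 and 0.061, that of the activators, inhibitor and chaperones −0.38 and 0.085, and the contrast of PSME1 −1.34 and 0.085. With only probes of one sign on both arrays, the median of the activators, inhibitor and chaperones was −0.68. Member probes past 2-fold on the COC7 side numbered 1 on the mean, 6 on array 1, 0 on array 2 and 0 when asked on each array, and on the COC4 side 0 on the mean, 1 on array 1 and 2 on array 2. Past 1.5-fold they numbered 6, 11, 2 and 1 on the COC7 side. On the COC4 side they numbered 3 on the mean, 8 on array 1 and 0 when asked on each array. The part of the dye or of either array in these shifts was not tested. The other 42 values for classes and counts kept their direction. Medians among them moved by less than the SD between the medians of the 2 arrays, and counts by no more than 1.5 times. That SD comes from the gap between the arrays, so it is a wide limit for array 1 or array 2 alone. Of the values for the 7 genes past 1.5-fold, 41 kept their direction. The other table holds the same values, so it could change no result. For these 7 genes the median of probes could not differ from the mean either. Each had 1 probe or, for UBE2D2, 2 probes. Centring the arrays moved no value by more than 0.0008, and removing block medians moved members by at most 0.074. No paired analysis was possible because only 1 pair of complexes was measured.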

Other observations

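The dye part, the mean of both arrays without turning, differed between the classes. Its median was −0.17 for the core, with 10 of 12 genes below 0, −0.063 for the cap (8 above, 9 below) and 0.16 for UBE2 (14 above, 8 below), against −0.0075 over all named genes. The 6 alpha ring genes had dye parts below 0, 6 of 6, and the 5 E2 enzymes of lysine 48 chains and of the endoplasmic reticulum had dye parts above 0, 5 of 5. The largest dye parts among members were −0.71 for PSME1 and 0.65 for UBE2S. The dye part and the contrast therefore lay on the same side of 0 for the core and for UBE2. In any gene this holds whenever array 1 has the larger absolute value. It is thus no observation separate from the larger medians on array 1, and their cause was not tested.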
